A study of Mus musculus with 8 samples.

Results

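The 6 libraries described here, of 8 in the study, came from mouse granulosa cells of the wild-type arm and were chosen by their titles, which read Hif1a-WT. They were then divided by the measured level of 1 gene, Inhba, which encodes the beta A subunit of inhibin and activin. Replicates 3, 4, 5 and 6 had more than 1000 CPM of Inhba, where CPM is counts scaled to a common library size of 1000000 reads on named genes, and form the high set (4 libraries), and replicates 1 and 2 had less than 500 CPM and form the low set (2 libraries). Because the sets were selected on measured expression, every difference between them is given as a description, with no test and no p-value, and the sets are not groups of the study.

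All mice carried Hif1a flox/flox alleles. The WT mice lacked the Foxl2-CreERT2 driver, and the conditional knockout (cKO) mice, which gave the remaining 2 libraries, carried it. The driver expresses a tamoxifen-dependent Cre recombinase from the granulosa cell gene Foxl2. Tamoxifen was started at 3 weeks of age and given on 5 days at 100 mg/kg, per the study's design text, and ovaries were taken 7 days after the final dose. Granulosa cells were cut from follicles on cryosections by laser microdissection, and the RNA was amplified by a Smart-seq2 protocol and made into libraries with Tn5. Neither the animal nor the follicle stage behind a library is labelled. The library names in the sample descriptions begin with cKO for all 8 samples, including those whose title and genotype label read WT, and the titles were followed. Nothing in the labels states that the WT libraries came from separate mice, so their spread may be technical.

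Granulosa cells surround the oocyte and change their gene expression as a follicle grows. Those of small growing follicles secrete anti-Müllerian hormone (AMH). Under follicle-stimulating hormone (FSH), the granulosa cells of antral follicles raise aromatase, inhibin subunits and, in the mural layer of large follicles, the receptor for luteinizing hormone (LH). An inhibin alpha subunit paired with a beta subunit makes inhibin, which lowers FSH release from the pituitary, whereas 2 beta subunits make activin. HIF1A, the factor whose gene is floxed here, is an oxygen-regulated transcription factor whose known targets include glycolytic enzymes.

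The libraries differed in ways other than Inhba. Reads on named genes ranged from 1594979 to 4719468 in the WT libraries, so that 3 reads, taken as the detection floor, equalled 0.636 to 1.88 CPM, and such floors cover counting error only. Across genes, the log2(CPM + 1) profiles of the low-set replicates correlated with each other at Pearson r = 0.80, those within the high set at 0.78 to 0.94, and pairs between the sets at 0.69 to 0.85. Replicate 2 correlated with each of the 4 high-set libraries at 0.82 to 0.85, above its r with replicate 1. Replicate 1 correlated with the high-set libraries at 0.69 to 0.77, below its r with replicate 2. These are correlations across genes, which are not independent replicates. The share of reads on Lars2, Gm20594 and Gm47283 was 9.21% in replicate 1, 2.72% in replicate 2 and 0.927% to 1.76% in the high set.

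Markers of the labelled cell type were present in every WT library, though 1 of the 13 listed was at 0 CPM in replicate 3. Of these 13, all described, 3 were separated higher and 1 lower (terms defined below), beside 2.25% and 1.12% over all genes. Without overlap 6 were higher and 2 lower, beside 14.8% and 8.88%. Cyp19a1 and Amh, which accompanied Inhba in the choice of the sets, are among the separated ones. FOXL2, the transcription factor that maintains granulosa identity, was encoded by transcripts at 169.9 and 197 CPM in the low set and 366, 122, 88.1 and 90.8 CPM in the high set, and the sets overlapped. Amhr2, the AMH receptor, also overlapped (253 and 301 against 145, 189, 173 and 284 CPM). Oocyte markers summed to 2465 CPM in replicate 6, to 269 and 690 CPM in the low set, and to 11.1 to 24.8 CPM in replicates 3 to 5, with 13 of 16 described. Stromal markers (10 of 10 described) summed to 1297 and 411 CPM in the low set and to 23.0 to 910 CPM in the high set, and replicate 6 held 23.0 CPM. Theca, endothelial, smooth muscle, immune and red blood cell markers also overlapped between the sets in their summed level. Immune markers (3 of 10 described) summed to 17.4 and 39.3 CPM in the low set and to 2.61 to 31.1 CPM in the high set. Surface epithelium markers (1 of 6 described) did not overlap, at 9.16 and 10.9 CPM in the low set and 0.848 to 8.67 CPM in the high set. By single described marker, most of these lists leaned lower in the high set. Oocyte markers had 1 log2 difference above 0 and 12 below, and stromal markers 2 and 8. Endothelial markers had 2 and 6, smooth muscle 1 and 5, immune 0 and 3, and surface epithelium 0 and 1. Red blood cell markers had 3 above and 2 below, and over all 13697 described genes 6926 were above 0. Of the 6 described theca markers, 3 had a log2 difference above 0 and 3 below. Gli1, a target of hedgehog signalling, was separated lower, at 117 and 24.6 CPM in the low set and 0, 8.69, 10.4 and 0 CPM in the high set. Aldh1a1 went the other way without overlap, at 38.9 and 73.9 CPM in the low set and 134, 281, 476 and 119 CPM in the high set. The part of these cells in the differences below was not tested.

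**Figure D1:**
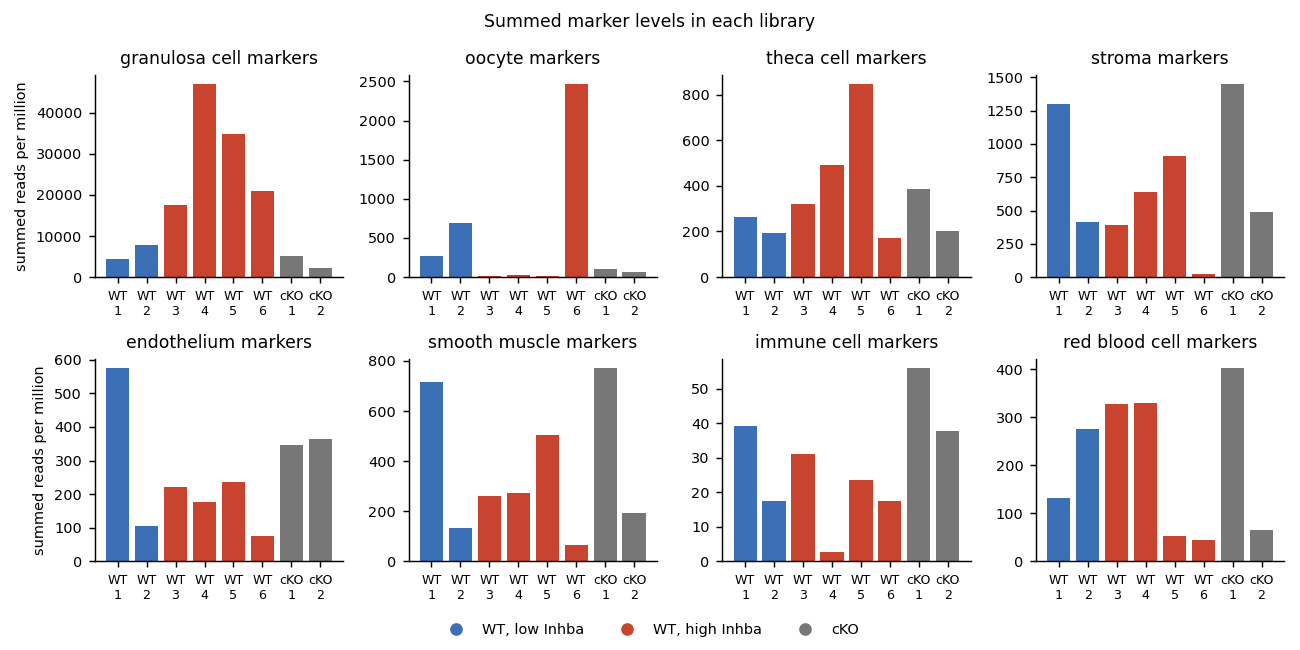
Summed CPM (vertical axes, linear, from 0) of the marker genes of 8 cell types in each library (bars, blue for the 2 low-Inhba WT, red for the 4 high-Inhba WT and grey for the 2 cKO libraries). Oocyte markers reach 2465 CPM in WT replicate 6, and the granulosa markers, some of which mark follicle stage, reach 17647 to 46946 CPM in the high set against 4317 and 7794 CPM in the low set. Most of the granulosa sum in the high set is Inha, at 11640 to 37355 CPM there and 1574 and 4158 CPM in the low set. Of the 13 granulosa markers, 8 had a log2 difference above 0 and 5 below.

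Inhba itself, which formed the sets (chr13:16011851-16031621 on GRCm38, plus strand), was at 58.8 and 79.5 CPM in the low set and 5334, 9686, 5679.9 and 2234 CPM in the high set. No WT library lay between 79.5 and 2234 CPM, so the limits of 500 and 1000 CPM do not divide close values. The 4 other genes that accompany Inhba in the choice were Amh, Hsd3b1, Cyp19a1 and Lhcgr, and their pattern was known when the sets were proposed, so they are not independent evidence of a follicle stage. They are still counted in the gene lists below, where their separation is likewise not independent of the choice. Amh (chr10:80805243-80807648, plus strand) was at 875 and 957 CPM in the low set and 2.57, 43.6, 27.9 and 174 CPM in the high set. All 4 high-set libraries were below the low set, with a gap of 5.01-fold between the nearest libraries, and replicate 6 was the highest of the 4. Hsd3b1, which makes progesterone from pregnenolone (chr3:98852194-98859794, minus strand), was at 316 and 581 CPM in the low set and 5973, 11184, 7971 and 2011 CPM in the high set, a gap of 3.46-fold. Cyp19a1, the aromatase gene (chr9:54165937-54268110, minus strand), was at 10.4 and 9.44 CPM in the low set and 118, 114, 104 and 30.8 CPM in the high set, a gap of 2.97-fold. Lhcgr, the LH receptor (chr17:88716481-88791990, minus strand), was at 16.3 and 2.32 CPM in the low set and 139, 135, 102 and 37.5 CPM in the high set, a gap of 2.30-fold. In all of Inhba, Hsd3b1, Cyp19a1 and Lhcgr, replicate 6 was the lowest of the high set.

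**Figure D2:**
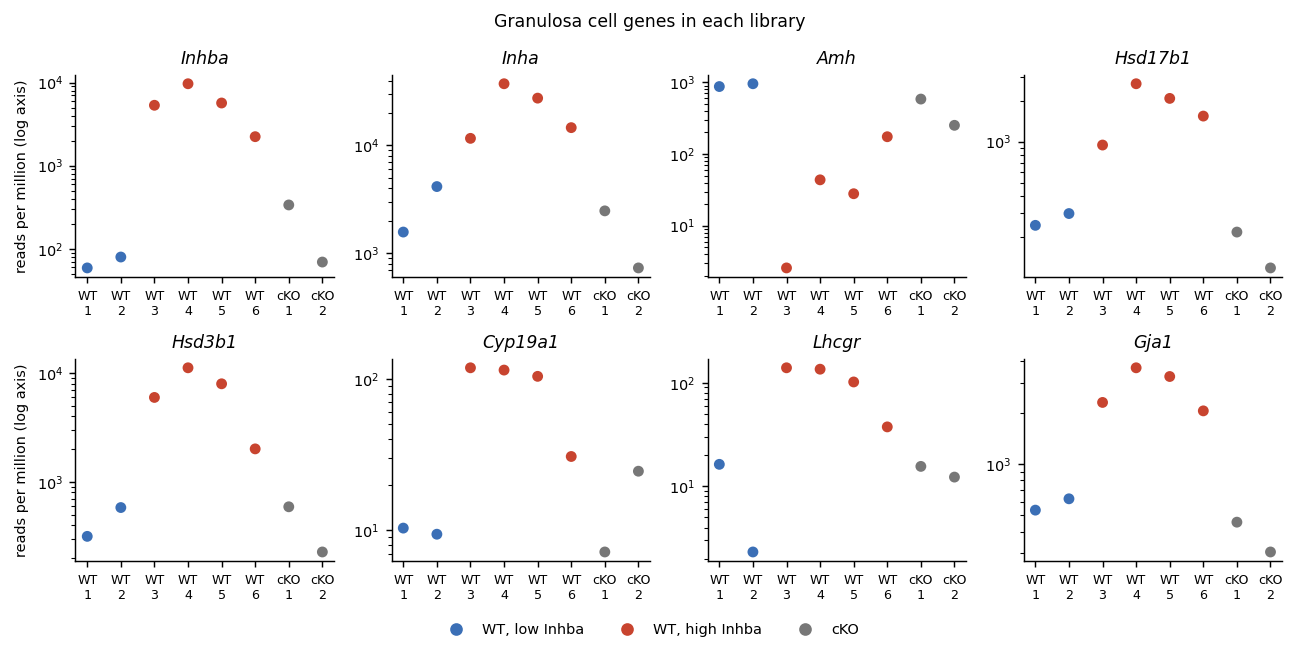
CPM (vertical axes, logarithmic) of 8 granulosa cell genes in each library (1 point per library, blue for low-Inhba WT, red for high-Inhba WT, grey for cKO). Each gene except Amh is higher in all 4 high-set libraries than in both low-set libraries, and Amh is lower, at 2.57 to 174 CPM against 875 and 957 CPM.

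Over all genes, 13697 besides Inhba had at least 10 reads in at least 2 WT libraries and are called described. A gene is called separated where the sets did not overlap and the nearest libraries of the 2 sets differed at least 2-fold, after values under the floor were raised to it. By this rule 308 genes (2.25%) were higher and 154 (1.12%) lower in the high set. Without a minimum gap, 2028 genes (14.8%) were higher in every high-set library than in both low-set libraries and 1216 (8.88%) were lower. These percentages are the background for the list counts below with all 6 libraries in CPM. A list count under an alternative is read against all genes under that alternative. Without replicate 2, 1271 of 13319 genes were separated higher and 1312 lower, and without replicate 1, 931 and 256 of 13310. Without replicate 3 they were 624 and 330 of 13407, without replicate 4, 372 and 194 of 13338, and without replicate 6, 460 and 323 of 13242. With all 6 libraries, the median log2 difference over all described genes (mean log2(CPM + 1) of the high set minus that of the low set) was 0.01. It was 0.15 without replicate 1, -0.09 without replicate 2, -0.02 without replicate 3 and 0.04 without replicate 6. With DESeq2 size factors it was -0.06. A list median under an alternative is read against the median over all genes under that alternative.

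The split between directions depended on the scaling. With DESeq2 size factors 216 genes were separated higher and 200 lower, and with the deposited TPM, a unit that also divides by transcript length, the counts were 472 and 109, where the median over all genes moved to 0.11. Dropping a library can only widen a gap. Without replicate 1 the counts were 931 and 256, without replicate 2 they were 1271 and 1312, and without replicate 3 they were 624 and 330. Without replicate 6 the lower count was 323. Replicate 2 was the low-set library nearer to the high set for 223 of the 308 higher genes and 101 of the 154 lower genes. In the high set, replicate 3 was nearest to the low set for 128 of the higher genes and replicate 6 for 96.

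**Figure D3:**
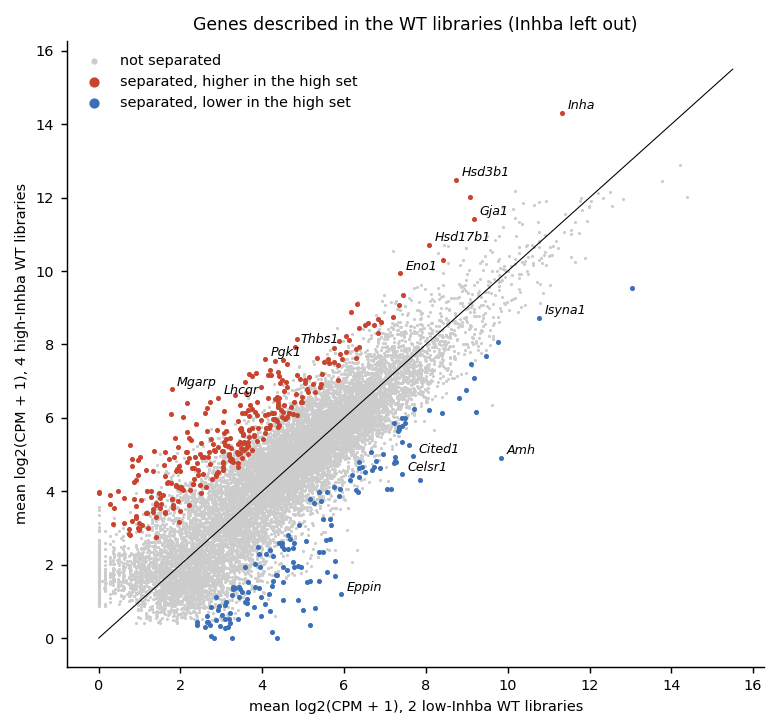
Mean log2(CPM + 1) of the 4 high-Inhba WT libraries (vertical axis) against that of the 2 low-Inhba WT libraries (horizontal axis) for 13697 described genes, with the line of equality. The 308 separated higher genes (red) lie above the line and the 154 separated lower genes (blue) below it, while grey points are genes that were not separated.

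Among inhibin, activin and related ligands, members lay in both directions. Of 16 listed genes (Inhba among them, left out of the counts) 12 were described, 2 were separated higher and 1, Amh, lower, 4 and 2 did not overlap in each direction, and the median log2 difference was -0.26. The median was 0.14 without replicate 1, 4 genes were separated lower without replicate 6, and 4 were separated higher and 2 lower without replicate 2. Inha, which encodes the alpha subunit that makes inhibin (chr1:75507077-75510366, plus strand), was at 1574 and 4158 CPM in the low set and 11640.0, 37355, 27473 and 14632 CPM in the high set, with a gap of 2.80-fold. Inhbb, the beta B subunit, was at 650.2 and 1322 CPM in the low set and 2201, 5049, 3847 and 3332 CPM in the high set, without overlap but under the 2-fold gap. Fst, which encodes the activin-binding protein follistatin, was likewise higher in every high-set library, at 237 and 265 CPM in the low set and 1112, 765, 525 and 633 CPM in the high set. Grem1, an antagonist of bone morphogenetic proteins (BMPs), was at 1.46 and 1.12 CPM in the low set and 11.9, 25.4, 33.5 and 4.53 CPM in the high set, where the low-set values of 1.46 and 1.12 CPM are near the floor. Gdf9 and Bmp15, growth factors of the oocyte, overlapped, and replicate 6 held 507 CPM of Gdf9 against 40.1 and 75.0 CPM in the low set and at most 8.26 CPM in replicates 3 to 5.

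The receptors and SMAD proteins of the same family (19 of 20 described) had a median of 0.16, with 2 members separated higher and 1 lower, and 5 and 2 without overlap. The separated counts were 1 and 2 under TMM scaling and DESeq2 size factors, 5 and 3 without replicate 2, and 2 and 2 without replicate 6, and the median was -0.05 without replicate 2 or replicate 3. In TPM 1 was separated higher and 0 lower. Bmpr1b, a type I BMP receptor, was at 18.2 and 22.3 CPM in the low set and 159, 85.2, 80.3 and 64.6 CPM in the high set, a gap of 2.90-fold. Bmpr2, its type II partner, was at 105 and 134 CPM in the low set and 701, 309.8, 373 and 293 CPM in the high set, and this separation was lost under TMM scaling, DESeq2 size factors and TPM. The inhibitory Smad7 went the other way, at 53.9 and 52.3 CPM in the low set and 21.9, 10.2, 13.9 and 23.4 CPM in the high set, and was not separated in TPM. Acvr1b, an activin type I receptor, was lower in every high-set library, at 42.6 and 26.0 CPM in the low set and 11.6, 9.11, 8.18 and 13.6 CPM in the high set.

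In the FSH and LH receptor and cAMP list (16 of 16 described, median 0.39), Lhcgr was the 1 separated gene, and 5 genes were higher and 1 lower without overlap. Lhcgr accompanied Inhba in the choice of the sets, so its call is not independent of that choice. Without replicate 2, 5 genes were separated higher, and without replicate 1 or replicate 6, 2 were. Fshr, the FSH receptor, was at 46.4 and 38.8 CPM in the low set and 88.4, 113, 115 and 46.1 CPM in the high set. Replicate 6 lay beside the low set, so the sets overlapped, and replicates 3 to 5 were above it. Prkar2b, a regulatory subunit of the cAMP-dependent kinase, was at 225 and 362 CPM in the low set and 1587, 1424, 1207 and 461 CPM in the high set, without overlap.

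Genes of estradiol synthesis and its transcription factors had a median of 0.49 (14 of 15 described), with 2 separated higher and 0 lower and with 5 and 1 without overlap. The 2 were Hsd17b1 and Cyp19a1, and Cyp19a1 accompanied Inhba in the choice of the sets, so its call is not independent of that choice. With DESeq2 size factors, or without replicate 2 or replicate 4, 1 was separated lower. Hsd17b1, which converts estrone to estradiol (chr11:101078411-101080527, plus strand), was at 243 and 296 CPM in the low set and 942, 2655, 2072 and 1537 CPM in the high set, a gap of 3.18-fold. Nr5a1 and Nr5a2, nuclear receptors that bind steroidogenic promoters, were higher without overlap. Nr5a1 was at 89.7 and 90.6 CPM in the low set and 332, 246, 232 and 129 CPM in the high set, and Nr5a2 at 155 and 188 CPM in the low set and 989, 475, 369 and 239 CPM in the high set. Wt1, a transcription factor known from granulosa cells of early follicles, was lower without overlap, at 79.6 and 31.1 CPM in the low set and 14.6, 15.9, 3.90 and 6.50 CPM in the high set. Esr2, the estrogen receptor of granulosa cells, overlapped, at 383 and 242 CPM in the low set and 465, 252, 287 and 202 CPM in the high set.

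For progesterone synthesis (14 of 16 described, median 0.77) Hsd3b1 was the 1 separated gene, and 5 genes were higher and 0 lower without overlap. Hsd3b1 also accompanied Inhba in the choice of the sets, so its call is not independent of that choice. Without replicate 2, 3 genes were separated higher and 1 lower, and without replicate 1 or replicate 6, 2 were higher. Star and Cyp11a1, which move cholesterol into mitochondria and cleave its side chain, overlapped, and replicate 6 was low in both. Star was at 9.40 and 3.48 CPM in the low set and 21.5, 11.4, 25.6 and 3.25 CPM in the high set, and Cyp11a1 was at 39.8 and 37.0 CPM in the low set and 92.4, 85.5, 137 and 12.6 CPM in the high set. Cholesterol synthesis genes (20 of 20 described) had a median of 0.62, with 0 separated in either direction and with 6 higher and 0 lower without overlap. Without replicate 2, 6 were separated higher, without replicate 1, 2 were, and in TPM, 2 were. Fdps, farnesyl diphosphate synthase, overlapped (132 and 367 against 276, 386, 405 and 416 CPM), and the sign of its difference changed under some of the alternatives. Fdft1, squalene synthase, was higher without overlap, at 36.3 and 96.2 CPM in the low set and 141, 199, 154 and 198 CPM in the high set, and its locus overlaps Ctsb.

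Signals between granulosa cells and the oocyte gave 2 separated genes, both higher, among 16 described, with 5 and 0 without overlap and a median of 0.03, which was -0.06 without replicate 6 and also below 0 with DESeq2 size factors. Gja1, the gap junction protein connexin 43 of granulosa cells (chr10:56377330-56402513, plus strand), was at 536 and 624 CPM in the low set and 2299, 3674, 3265 and 2051 CPM in the high set, a gap of 3.29-fold. Nppc, the ligand that holds the oocyte in meiotic arrest, was at 23.8 and 20.7 CPM in the low set and 111, 199, 63.2 and 85.6 CPM in the high set, a gap of 2.65-fold. Its receptor gene Npr2 overlapped, at 549 and 512 CPM in the low set and 685, 248, 235 and 336 CPM in the high set.

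Of 20 listed genes that the ovulatory LH surge is known to induce or that respond to it, 10 were described, 9 were too low and Areg was not analysed here. Ptgs2, the inducible cyclooxygenase, had 0 CPM in all 6 WT libraries. Egr1, an immediate early transcription factor, was the 1 separated gene, lower, at 8.15 and 16.5 CPM in the low set and 0, 3.81, 1.95 and 3.90 CPM in the high set. Its gap was 2.09-fold, and it was lost under TMM scaling, DESeq2 size factors and TPM. The list's median was 0.56, and -0.09 without replicate 2, with 1 gene in each direction without overlap.

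**Figure D4:**
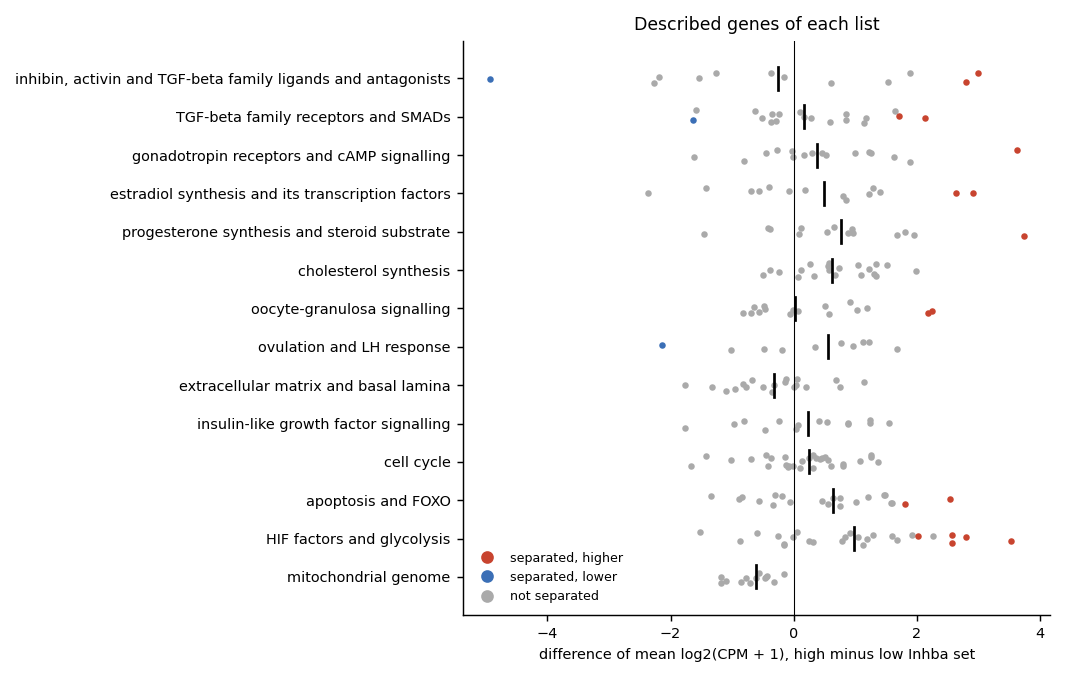
Difference of mean log2(CPM + 1), high minus low Inhba set (horizontal axis), for each described gene of 14 lists (rows, 1 point per gene, vertical jitter arbitrary; red separated higher, blue separated lower, grey not separated; black bar, list median). The medians run from -0.61 for the mitochondrial genome to 0.98 for the HIF and glycolysis list.

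No gene of the extracellular matrix, insulin-like growth factor or cell cycle lists was separated with all 6 libraries in CPM. In TPM, or without replicate 1 or replicate 3, 1 matrix gene was separated higher, and without replicate 2, 1 was lower. Without replicate 1, 1 growth factor gene was separated higher, and without replicate 2, 2 were. Matrix genes had a median of -0.32 (19 of 19 described; 3 higher and 1 lower without overlap), and of 0.12 without replicate 1. Lama1, a laminin chain of the follicular basal lamina, was the lower gene, at 804 and 525 CPM in the low set and 333, 264, 331 and 427 CPM in the high set. Sparc, a matrix glycoprotein of several cell types, overlapped, at 1171 and 539 CPM in the low set and 347, 653, 670.1 and 124 CPM in the high set. In the growth factor list (14 of 16 described, median 0.24, and -0.19 without replicate 2 and also below 0 without replicate 3; 3 higher and 1 lower without overlap), Igf1 and its receptor Igf1r overlapped. Igf1 was at 196 and 217 CPM in the low set and 98.7, 155, 155 and 203 CPM in the high set, and Igf1r at 315 and 332 CPM in the low set and 501, 219, 196 and 260.1 CPM in the high set.

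Cell cycle genes had a median of 0.25 (29 of 29 described; 3 higher and 2 lower without overlap), and of -0.24 without replicate 1. Without replicate 2, 3 were separated higher and 1 lower, and without replicate 1 or replicate 4, 1 was lower. Ccnd2, the D-type cyclin that FSH induces in granulosa cells, overlapped, at 1757 and 2473 CPM in the low set and 1153, 1755, 1378 and 2450.2 CPM in the high set. Mki67, a marker of dividing cells, was lower without overlap and with a small gap, at 929 and 821 CPM in the low set and 698, 293, 273 and 612 CPM in the high set. Ccnb2, a mitotic cyclin, was higher without overlap, at 44.5 and 104 CPM in the low set and 135, 153, 171 and 204 CPM in the high set. Members of the list lay in both directions.

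Apoptosis and FOXO genes had a median of 0.64 (21 of 24 described), with 2 separated higher, 0 lower, and 7 and 1 without overlap. Without replicate 2, 7 were separated higher, and without replicate 3, 1 was lower. Bad, a pro-apoptotic BH3 protein, was at 12.5 and 9.52 CPM in the low set and 46.8, 79.2, 80.1 and 75.0 CPM in the high set, with a gap of 3.73-fold. Its locus overlaps Gpr137, and the reads carry no strand. Foxo1, a transcription factor abundant in granulosa cells of growing follicles, was higher without overlap, at 582 and 888 CPM in the low set and 2335, 1964, 2141 and 1632 CPM in the high set, with a gap of 1.84-fold that reached the 2-fold limit in TPM. Bcl2l1, which encodes the survival protein BCL-XL, overlapped, at 53.9 and 95.2 CPM in the low set and 119.7, 106, 87.7 and 114 CPM in the high set. Bcl2l11, which encodes the pro-apoptotic BIM, overlapped too, at 23.6 and 21.8 CPM in the low set and 23.1, 21.8, 17.5 and 17.5 CPM in the high set.

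The HIF and glycolysis list had the highest median of the 14, 0.98 (26 of 27 described). Of its members 5 were separated higher and 0 lower, and 14 and 1 did not overlap, read against 2.25% and 1.12% separated and 14.8% and 8.88% without overlap over all genes. With TMM scaling or DESeq2 size factors 4 were separated higher, and in TPM 6, and with DESeq2 size factors, or with the mitochondrial genome left out of the library size, 1 was lower. Without replicate 2 the counts were 11 higher and 1 lower, and without replicate 1 or replicate 3 they were 7 and 1. Pgk1, phosphoglycerate kinase (chrX:106187100-106203699, plus strand), was at 11.3 and 21.8 CPM in the low set and 176, 145, 197 and 273 CPM in the high set, a gap of 6.63-fold. Ldha, which makes lactate from pyruvate (chr7:46841475-46855627, plus strand), was at 92.7 and 87.1 CPM in the low set and 347, 297, 306 and 571 CPM in the high set, a gap of 3.21-fold. Every high-set library was above both low-set libraries for each enzyme, and replicate 6 was the highest for both. Eno1, an enolase, was at 123 and 218 CPM in the low set and 1498, 866, 683 and 1036 CPM in the high set, a gap of 3.13-fold. Tpi1, triosephosphate isomerase, whose locus overlaps Spsb2, was at 38.9 and 157 CPM in the low set and 605, 461, 465 and 699 CPM in the high set. The fifth was Vhl, part of the ubiquitin ligase that degrades HIF alpha subunits, at 2.51 and 6.50 CPM in the low set and 36.9, 35.6, 41.8 and 13.6 CPM in the high set, and it was named after its values were seen. Its separation was lost under TMM scaling and DESeq2 size factors. Several glycolytic genes have processed pseudogenes in the mouse genome, so the authors' counting could split their reads between copies.

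The other steps of glycolysis did not all follow. Aldoa and Gapdh, further enzymes of the list, were higher without overlap but under the 2-fold gap. Aldoa was at 655 and 1173 CPM in the low set and 2674, 2043, 1601 and 1798 CPM in the high set. Gapdh was at 1239 and 2407 CPM in the low set and 4088, 4202, 3786 and 3132 CPM in the high set. Hk1 and Gpi1 overlapped. Hk2, a hexokinase, was lower in every high-set library, at 55.2 and 79.9 CPM in the low set and 27.9, 22.9, 24.7 and 16.5 CPM in the high set. Slc2a1, a glucose transporter, and Vegfa, an angiogenic HIF target, overlapped. Slc2a1 was at 21.3 and 44.8 CPM in the low set and 32.2, 35.6, 15.2 and 25.3 CPM in the high set, and Vegfa at 50.5 and 36.0 CPM in the low set and 59.2, 21.0, 17.6 and 27.2 CPM in the high set. Hif1a itself (chr12:73901375-73947530, plus strand) was at 43.0 and 30.2 CPM in the low set and 76.8, 84.5, 102 and 49.2 CPM in the high set. It did not overlap, and the gap was 1.14-fold between replicates 1 and 6, with an antisense gene at the same locus. Epas1, which encodes another HIF alpha subunit, was also higher without overlap, with a gap of 1.67-fold. Its level was 46.4 and 76.4 CPM in the low set and 197, 131, 128 and 141 CPM in the high set. Genes of the mitochondrial genome, which encode respiratory chain subunits, had a median of -0.61, with 0 of 13 separated and 0 higher and 4 lower without overlap. Replicates 3 and 6 held 1.48% and 1.42% of reads on them and the other 4 WT libraries 3.26% to 3.65%.

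The promoters of Pgk1, Bnip3, Mgarp and Ldha are shown because these genes were separated and their windows hold ACGTG, 1 form of the core letters of the HIF binding motif. Each sequence is the 250 bases before the RefSeq start on GRCm38.p6, 5′ to 3′ on the gene's strand, with ACGTG on either strand in capitals. The windows are chrX:106186850-106187099, plus strand for Pgk1, chr7:138909507-138909756, minus strand for Bnip3, chr3:51396548-51396797, minus strand for Mgarp and chr7:46845554-46845803, plus strand for the first listed start of Ldha.
Pgk1: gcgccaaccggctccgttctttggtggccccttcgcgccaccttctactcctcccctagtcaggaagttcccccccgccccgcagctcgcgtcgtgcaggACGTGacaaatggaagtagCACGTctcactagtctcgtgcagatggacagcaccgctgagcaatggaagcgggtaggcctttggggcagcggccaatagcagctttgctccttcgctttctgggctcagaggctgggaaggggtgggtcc
Bnip3: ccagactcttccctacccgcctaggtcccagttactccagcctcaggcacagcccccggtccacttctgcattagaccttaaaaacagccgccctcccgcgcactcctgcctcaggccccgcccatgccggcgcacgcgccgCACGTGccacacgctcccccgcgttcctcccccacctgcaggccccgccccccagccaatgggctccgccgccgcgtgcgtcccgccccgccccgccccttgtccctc
Mgarp: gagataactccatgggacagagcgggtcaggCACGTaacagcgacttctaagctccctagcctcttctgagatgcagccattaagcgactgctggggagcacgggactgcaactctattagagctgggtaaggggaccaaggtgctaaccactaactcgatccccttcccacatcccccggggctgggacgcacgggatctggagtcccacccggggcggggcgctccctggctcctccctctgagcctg
Ldha: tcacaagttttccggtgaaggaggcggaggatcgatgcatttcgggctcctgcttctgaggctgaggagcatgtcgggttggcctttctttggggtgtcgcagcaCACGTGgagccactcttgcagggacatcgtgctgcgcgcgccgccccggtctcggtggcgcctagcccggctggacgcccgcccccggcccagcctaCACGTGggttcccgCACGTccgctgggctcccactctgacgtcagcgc
Counting each strand, ACGTG occurred 2 times for Pgk1, 2 for Bnip3, 1 for Mgarp and 5 for Ldha, where a CACGTG counts on both strands. ACGTG was not found in the windows of Eno1, Tpi1, Inha, Hsd3b1, Cyp19a1 or Lhcgr, nor at the second start of Ldha. The other form of the HIF core, GCGTG, was not counted, and the Eno1 windows hold it when either strand is read. Some RefSeq starts differ from the GENCODE starts, and the Inha and Ldha windows, among others, lie inside the gene loci given above. For such genes the counts do not cover the bases before the GENCODE start. Of 302 windows of genes separated higher (238 of the 308 genes matched the RefSeq table) 26.2% held ACGTG, beside 13.6% of 140 windows of genes separated lower, 20.8% of 12649 windows of genes not separated and 16.6% of all 32851 windows of that length. The cAMP response element TGACGTCA, which does not contain ACGTG, was in 2.32%, 4.29%, 2.46% and 1.55% of these windows. The NR5A site CAAGGTCA was in 0.993%, 1.43%, 0.909% and 1.33%. A match is a description of the letters and shows no binding.

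The 12 genes with the largest gaps upward, among those averaging at least 20 CPM, were led by Mgarp. Mgarp, a mitochondrial protein known from steroid-producing tissue (chr3:51388412-51396738, minus strand), was at 3.13 and 1.86 CPM in the low set and 99.2, 195, 130.4 and 55.2 CPM in the high set, a gap of 17.6-fold. Bnip3, a mitophagy receptor and known HIF target (chr7:138890836-138909519, minus strand), was at 0.627 and 11.1 CPM in the low set and 94.0, 98.5, 61.5 and 84.7 CPM in the high set, where replicates 1 and 2 themselves differed. Fundc2, an outer mitochondrial membrane protein whose locus overlaps F8, was at 5.02 and 5.57 CPM in the low set and 33.0, 62.7, 50.3 and 56.5 CPM in the high set. Prelid3b, of a family of mitochondrial lipid carriers, was at 5.02 and 5.11 CPM in the low set and 27.9, 118, 103 and 68.7 CPM in the high set.

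Among the other genes of the 12, Thbs1, the matrix protein thrombospondin 1, was at 25.7 and 28.1 CPM in the low set and 240.3, 252, 258 and 224 CPM in the high set, and the 4 high-set libraries lay close together. Kcne2, a potassium channel subunit, was at 1.88 and 0 CPM in the low set and 22.7, 46.4, 87.3 and 20.6 CPM in the high set, with the low set at or under the floor. St6gal1, a sialyltransferase, was at 1.88 and 6.04 CPM in the low set and 33.5, 73.7, 65.4 and 33.8 CPM in the high set, and was not separated in TPM. The remaining genes were Pgk1, Psd, Tmsb15b2, Fhod3 and Pigp, with gaps of 6.63, 12.5, 7.77, 7.36 and 5.47-fold. Psd overlaps Nfkb2, Fhod3 overlaps Tpgs2, Pigp overlaps Ttc3, and Tmsb15b2 overlaps Tmsb15l and Tmsb15b1 and belongs to a family of near copies, so their reads are uncertain.

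Of the 12 genes with the largest gaps downward, Amh is described above. Eppin, a protease inhibitor, was at 40.8 and 87.6 CPM in the low set and 4.29, 1.06, 1.52 and 0 CPM in the high set, a gap of 9.50-fold. Celsr1, an atypical cadherin of planar cell polarity (chr15:85898929-86033777, minus strand), was at 176 and 164 CPM in the low set and 15.0, 23.5, 17.1 and 32.1 CPM in the high set, a gap of 5.11-fold. Cited1, a transcriptional coregulator, was at 176 and 237 CPM in the low set and 44.6, 22.5, 16.5 and 47.7 CPM in the high set.

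Nat10, an RNA acetyltransferase that acts on ribosomal RNA, was at 105 and 106 CPM in the low set and 29.3, 29.9, 15.0 and 25.4 CPM in the high set. Dapk3, a death-associated protein kinase, was at 85.3 and 71.1 CPM in the low set and 17.2, 15.9, 11.3 and 17.8 CPM in the high set. Galnt16, Myo5c and Cacna1h had gaps of 4.33, 3.43 and 3.12-fold. Kcnt1, a sodium-activated potassium channel, and the olfactory receptor genes Olfr1309 and Olfr137 were all highest in replicate 1 among the WT libraries. Kcnt1 was at 236 and 96.2 CPM in the low set and 30.5, 22.3, 28.4 and 28.6 CPM in the high set, and was not separated in TPM. Olfr1309 was at 239 and 82.8 CPM in the low set and 20.2, 8.95, 19.5 and 17.3 CPM in the high set, and Olfr137 at 69.7 and 34.4 CPM in the low set and 7.23, 5.59, 9.75 and 1.95 CPM in the high set. Olfactory receptors form a large gene family, so reads may be shared between copies, and replicate 1 was also the WT library with the highest share on Lars2, Gm20594 and Gm47283.

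**Figure D5:**
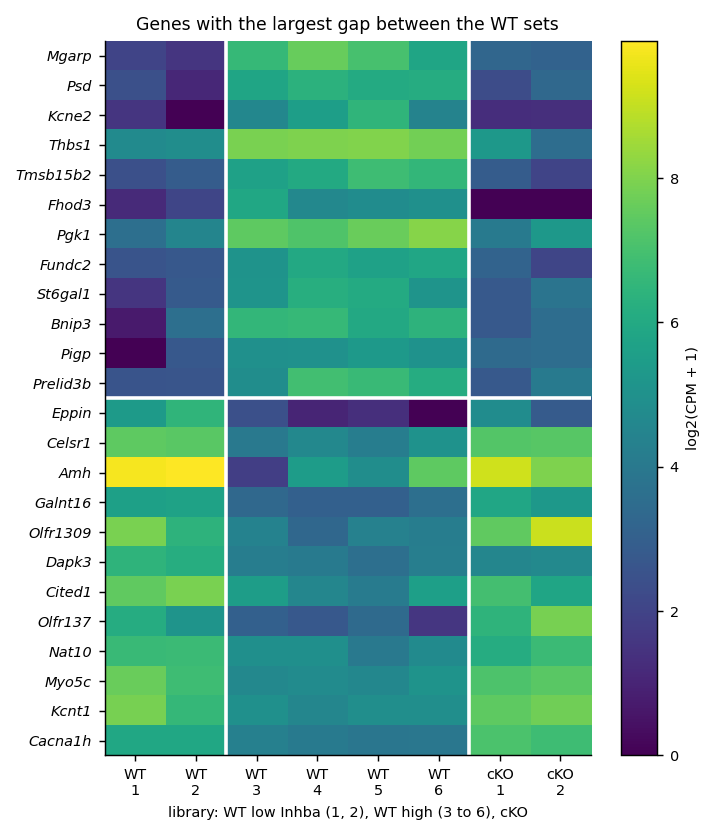
Level of the 12 genes with the largest gap in each direction (rows; top, higher in the high set; bottom, lower) in each library (columns), as log2(CPM + 1) on the colour scale. White lines divide the low-Inhba WT, high-Inhba WT and cKO libraries; Mgarp runs from 1.86 and 3.13 CPM in the low set to 55.2 to 195 CPM in the high set.

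The 2 cKO libraries, which took no part in forming the sets, were placed beside them gene by gene, on whichever side of the midpoint between the set means of log2(CPM + 1) they fell. Of the 308 genes higher in the high set, cKO replicate 1 lay on the low set's side for 229 (74.4%) and cKO replicate 2 for 238 (77.3%). Of the 154 lower genes, they did so for 111 (72.1%) and 121 (78.6%). Among the 13235 described genes that were not separated, the shares were 60.4% and 63.3%, and these are the values to read against. Without WT replicate 1 the share for higher genes was 54.4% in cKO replicate 1 and 48.2% in cKO replicate 2, beside 53.1% and 51.4% of the genes not separated then. Without WT replicate 2 the share for lower genes was 44.4% in cKO replicate 1, beside 53.4%. In cKO replicate 2, which had 651656 reads on named genes, 79 of the 308 higher genes were at or under its floor of 4.60 CPM, and in cKO replicate 1 this was 36. No such count was made over the genes not separated, so these counts have no background to read against. The cKO replicates 1 and 2 held 5.71% and 17.9% of reads on Lars2, Gm20594 and Gm47283, beside 9.21% in WT replicate 1 and 0.927% to 2.72% in the other WT libraries. Across genes, cKO replicate 2 correlated with WT replicate 1 at 0.80, with WT replicate 2 at 0.71 and with the high set at 0.61 to 0.70. For cKO replicate 1 these were 0.83, 0.85 and 0.74 to 0.81. The part of this trait in the placement was not tested.

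By named gene, Inhba was at 337 and 69.2 CPM in the cKO replicates 1 and 2, the first between the WT sets and the second between the low-set values. Amh was at 585 and 252 CPM, under the low set and above the high set. Pgk1 was at 15.6 and 38.4 CPM and Ldha at 68.6 and 47.6 CPM, both below every high-set library. Mgarp was at 8.76 and 7.77 CPM, and Gja1 at 455 and 304 CPM, also below the high set. The cKO libraries held 8.87% and 10.5% of reads on the mitochondrial genome, above all WT libraries, and genotype and these differences cannot be told apart in a comparison of the cKO with the high set. In microdissected bulk tissue, fewer cells of a type and less RNA per cell also cannot be told apart.

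The separated genes were last set beside the rest for simple properties. Of the genes separated higher 97.7% were annotated as protein coding, of those lower 92.9% and of the others 95.4%. The median genomic span was 19.8 kb, 14.3 kb and 23.5 kb. The median of a gene's mean level was 32.7, 12.5 and 25.4 CPM, so that the lower genes were the least abundant of the 3 classes, and 38 of the 154 had no high-set library with 10 reads, as 46 of the 308 higher genes had no low-set library with 10 reads.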

How the data were processed

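RNA-seq of laser-microdissected granulosa cells gave 1 table per sample. The authors deposited estimated counts (the number of reads Salmon assigns, which need not be whole) and TPM for 36635 rows. HISAT2, Salmon and mm10 are named per the submitters' processing notes; their versions and roles and the annotation are not given in the sources used here. Per the labels' protocols, the library protocol was Smart-seq2 with Tn5, which does not mark strand.

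The members and the gene lists were chosen with earlier results of these data known. Libraries took their group from the sample titles. CPM was the estimated count divided by the sum over 35087 rows named by gene symbol, leaving out 1548 rows with only a transcript identifier (0.435% to 0.739% of reads), scaled to 1000000. A gene was described with at least 10 reads in at least 2 WT libraries. Values below 3 reads were raised to 3 when a gap was taken, and log2 values used a pseudocount of 1 CPM. No count test was run, since the sets were formed on expression. Gene positions came from GENCODE M21 (GRCm38), with 34130 symbols matched, and promoters from RefSeq. Named genes were 9 fixed genes, up to 4 separated genes per list and direction by gap (or 2 by level where a list had none), and 12 per direction over all genes with a mean of at least 20 CPM; Vhl and other list members were named besides these after their values were seen. A gene that the rule selects is not reported here. Alternatives were TMM library sizes (edgeR 4.0.16), DESeq2 1.42.0 size factors, TPM, other rows in the library size, other filters, floors, gaps and pseudocounts of 0.1 and 10, and leaving out each WT library (R 4.3.3, Python 3.11.15).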

Additional observations from a re-analysis of the deposited data

Results flagged for a closer look

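Of 70 sets of values over the 6 WT libraries, 5 had an extreme library whose distance to the next was large for the whole range (Dixon's criterion). The criterion's rate of about 1 set in 20 is for independent, normally distributed values. The sets here include genes named for their separation, so the 5 cannot be read against that rate. In replicate 1, Olfr1309 was at 239 CPM and Kcnt1 at 236 CPM, against at most 82.8 and 96.2 CPM in the other WT libraries. The same replicate held 9.21% of its reads on Lars2, Gm20594 and Gm47283 and 575 CPM of endothelial markers. In replicate 6, oocyte markers summed to 2465 CPM, against at most 690 CPM elsewhere. Replicate 1 is in the low set and replicate 6 in the high set, and no cause was tested.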

How the results depend on the processing

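The counts of 308 higher and 154 lower genes moved by more than 1.5 times in TPM (472 higher), with 10 reads required in 4 WT libraries (101 lower), with any gap (2028 and 1216) and with a 4-fold gap (39 and 31). Leaving out each WT library gave 351 to 1271 higher and 194 to 1312 lower genes, a widening that follows from having fewer libraries to separate. TMM scaling gave 244 and 171, of which 228 and 142 were among the 308 and 154. No gene separated with all libraries changed the sign of its difference among the named genes, but without replicate 2 more genes were separated lower than higher (1312 and 1271). Of 41 named separated genes, 2 were no longer separated with TMM, 2 with DESeq2 size factors and 5 in TPM. The counts within gene lists under these alternatives were added after the data were seen. The differences of Fdps and Igf1r, which were not separated, changed sign under some alternatives, as did the medians of 7 of the 14 gene lists. The median over all described genes also changed sign, from 0.01 to -0.09 without replicate 2 and to -0.06 with DESeq2 size factors. The share of higher genes with cKO replicate 2 on the low side was 72.1% with TMM and 69.3% in TPM. For lower genes the shares in TPM were 56.9% (cKO replicate 1) and 70.6% (cKO replicate 2), beside 59.4% and 61.4% of the genes not separated in TPM, so the first was below its background, and the cause was not tested. Over the left-out WT libraries, the shares for higher genes ranged from 54.4% to 79.0% in cKO replicate 1 and from 48.2% to 80.0% in cKO replicate 2, and for lower genes from 44.4% to 76.7% and from 62.9% to 80.6%. No paired analysis was possible because the sets hold different replicate numbers and no result came from a test. At 1594979 to 4719468 reads, genes under 1.88 CPM could not be told from 0 in every WT library.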

Other observations

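Further abundant genes, chosen after their values were seen, differed between the WT sets. Cyb5a, cytochrome b5, an electron carrier of steroid and lipid enzymes, was at 266 and 1104 CPM in the low set and 2533, 6971, 5410.1 and 2982 CPM in the high set. Ctsl, the lysosomal protease cathepsin L, overlapped, since replicate 2 (285 and 1754 CPM in replicates 1 and 2) exceeded replicate 3 (1604, 4831, 3266 and 3223 CPM in replicates 3 to 6). Isyna1, which makes inositol phosphate from glucose phosphate, was lower in the high set, at 1835 and 1638 CPM in the low set and 425, 397, 345 and 542 CPM in the high set.

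A pair of nucleolar genes, also chosen after their values were seen, was lower in the high set. Nop56, a nucleolar protein of small nucleolar RNA complexes, was at 661 and 750.0 CPM in the low set and 229.6, 162, 174 and 277 CPM in the high set. Ppan, a factor of large subunit maturation, was at 543 and 364 CPM in the low set and 117, 74.2, 58.4 and 139 CPM in the high set. No list of ribosome assembly genes was examined, so these are single genes and not a result about that process.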
